A study of Homo sapiens with 6 samples.

Results

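The genes described here are 10 members of the integrated stress response and of serine synthesis: ATF4, DDIT3, TRIB3, CHAC1, ASNS, PSAT1, PHGDH, PSPH, SHMT2 and SLC7A11. They were taken by name from the 25330 gene symbols of a raw read count table, all 10 were found, and all 10 passed the filter on low counts. The table holds 6 RNA-seq libraries of MDA-MB-231, a long-established line of human triple-negative breast cancer, grown untreated in RPMI-1640 with serum. Of these, 3 carry the genotype label CTRV2 control and 3 the label RNASEH2A KO, whose columns are named RN1. RNASEH2A codes for the subunit that gives RNase H2 its activity, which is to cut out ribonucleotides built into DNA. Each group came from 3 passages, all under 1 batch label, and the sources used here do not say whether the knockout cells are 1 clone or a pool. The p-values therefore measure the spread between passages at most. Control replicates 2 and 3 may differ by little more than sampling, as given under the processing.

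Library totals ran from 25419877 to 31596286 counts. Knockout replicate 1 stood apart from the other knockouts, with a chi-square per degree of freedom of 34.2 and 22.2 against them, where those differed by 6.61. Control replicate 1 stood apart in the same way, at 11.4 and 10.2 against the other controls, which differed by 2.45. Markers of the line were high, at a summed level of 4913 to 5265 CPM (counts scaled per 1e6 by library size and TMM factor) in controls and 4718 to 4968 CPM in knockouts over 6 mesenchymal genes, while 1 of 6 tested luminal genes, KRT18, fell. The luminal genes ESR1, PGR and FOXA1 and the leukocyte genes PTPRC, ITGAM and TYROBP stayed under 1 CPM in every library. All 9 luminal genes together were at 1310 to 1361 CPM in controls and 1212 to 1280 CPM in knockouts. The 4 leukocyte genes found together were at 4.12 to 4.98 CPM in controls and 2.44 to 4.24 CPM in knockouts. Summed fibroblast markers were at 49.3 to 54.5 CPM in controls and 46.1 to 93.2 CPM in knockouts, and 0 of the 4 tested passed (edgeR; at an unadjusted threshold COL1A1, COL1A2 and PDGFRB were below 0.05, in both directions). RNASEH2A itself had 10, 6 and 15 counts in controls and 7, 8 and 16 in knockouts (exact two-sided permutation p = 0.8, smallest possible 0.1). In GENCODE 29 the gene overlaps a same-strand neighbour over 40.8% of its principal exonic bases. These counts cannot serve as a check of genotype, so every direction below rests on the labels alone.

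In the integrated stress response, kinases that sense amino acid shortage, unfolded protein, haem deficiency or double-stranded RNA phosphorylate the translation factor eIF2. General translation then slows while the ATF4 mRNA is translated more, because of upstream reading frames in its leader. The level of ATF4 mRNA is thus only 1 input to the amount of ATF4 protein. With a C/EBP partner, ATF4 binds a composite element in its target genes, among them those for making serine, importing amino acids and charging tRNAs. Serine is made from a glycolytic intermediate by PHGDH, PSAT1 and PSPH in that order, and SHMT2 turns serine into glycine in mitochondria and releases a one-carbon unit. MDA-MB-231 is known as a line with little PHGDH.

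The core of the composite element, TGATGNAA on either strand, was searched in RefSeq promoter windows (GRCh38.p14, from 250 bases before to 50 after a gene's start). Windows were found for 7 of the 10 members, and PSPH, SHMT2 and SLC7A11 are without one. ASNS and CHAC1 held the motif, beside 4.46% of all 27305 genes with a window and 2.66% of the tested ones. A gene counted once, whatever its number of windows. The stretches below, all 5′ to 3′ on the gene's own strand, carry the motif in capitals. They are shown because ASNS and CHAC1 are the members with a match, while MTHFD1L, BCAT1 and PPP1R15B are genes of the same pathway with a match whose level fell, as given further on. Positions count back from the RefSeq start of the window shown, with -1 the base just before it. Genes with several starts have several windows, so a base before 1 start can lie inside a longer transcript.
ASNS (chr7:97872458-97872487, minus strand, motif from -68 to -61): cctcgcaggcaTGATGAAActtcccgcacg
CHAC1 (chr15:40953251-40953280, plus strand, motif from -209 to -202): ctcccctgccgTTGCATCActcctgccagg
MTHFD1L (chr6:150866346-150866375, plus strand, motif from -129 to -122): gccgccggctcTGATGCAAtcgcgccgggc
BCAT1 (chr12:24949131-24949160, minus strand, motif from -48 to -41): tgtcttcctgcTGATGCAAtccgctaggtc
PPP1R15B (chr1:204412026-204412055, minus strand, motif from -227 to -220): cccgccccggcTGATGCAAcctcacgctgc

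The members whose level fell, PSAT1 and TRIB3, had no match in any of their windows, which says only that these letters are not there. The 120 bases before a start of each are shown for comparison, with nothing in capitals.
PSAT1 (chr9:78297005-78297124, plus strand): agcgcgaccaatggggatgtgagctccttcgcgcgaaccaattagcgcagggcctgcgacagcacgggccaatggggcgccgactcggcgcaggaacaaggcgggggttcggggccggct
TRIB3 (chr20:381175-381294, plus strand): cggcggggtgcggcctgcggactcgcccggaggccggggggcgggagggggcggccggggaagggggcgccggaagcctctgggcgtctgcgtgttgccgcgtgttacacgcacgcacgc

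Knockout libraries held less mRNA of PSAT1, the aminotransferase of serine synthesis, and of TRIB3, a pseudokinase induced by ATF4 and CHOP. PSAT1 fell by 29.6% and TRIB3 by 35.7%. The other 8 members did not pass. A gene was called changed at a Benjamini-Hochberg adjusted p under 0.05 in edgeR's quasi-likelihood test over 14199 genes. Thus 2 of 10 members fell and 0 rose, beside 6.22% of all tested genes that were called lower and 5.88% called higher, and the counts of members are too small to be read against these shares. At an unadjusted p under 0.05, SLC7A11 stood on the higher side, and DESeq2 called it higher too. In either direction, 3 of the 10 members and 3939 of the 14199 tested genes were below this unadjusted threshold in edgeR. The median log2 fold change of the 10 was -0.11, beside 0.00 for all tested genes, and 7 of the 10 were below 0. In a bulk culture, less RNA in every cell and fewer cells that express a gene cannot be told apart.

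**Figure D1:**
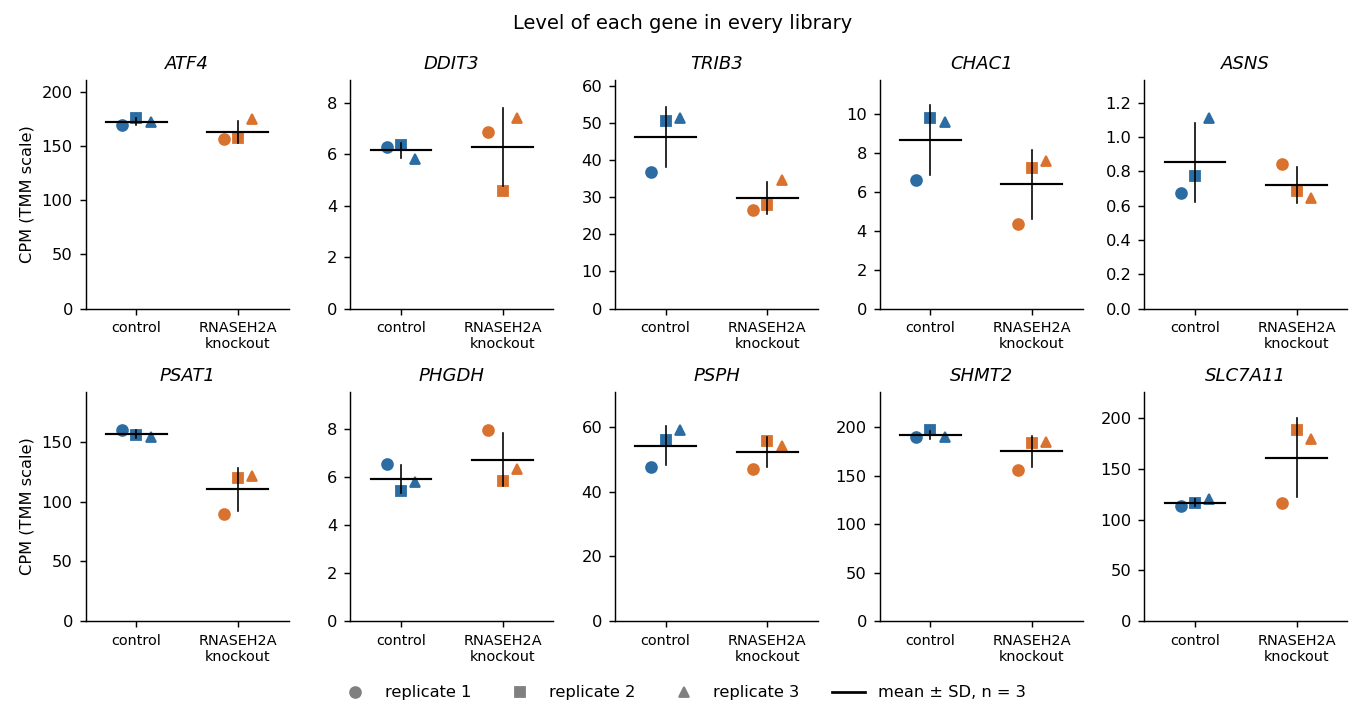
Level of each of the 10 genes in every library, in CPM on the TMM scale from 0, with controls in blue and knockouts in orange, the replicate number by symbol, and bars for the mean ± SD of 3. PSAT1, TRIB3 and SHMT2 do not overlap between the groups, and SLC7A11 is high in 2 of the 3 knockout libraries.

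The groups did not overlap in 3 members, PSAT1, TRIB3 and SHMT2, all lower in knockouts, where 33.5% of tested genes did not overlap: 17.4% with knockouts lower and 16.1% with knockouts higher. To set the genes beside each other, levels in controls were divided by the length of the principal transcripts. On this scale SHMT2 stood highest at 75.8 ± 1.67 CPM per kb (SD, n = 3), followed by PSAT1 at 71.8 ± 1.39 and ATF4 at 68.7 ± 1.23. The ranges of these 3 did not overlap. PSPH was at 24.9 ± 2.75, TRIB3 at 18.5 ± 3.26 and SLC7A11 at 12.1 ± 0.341 CPM per kb, and these did not overlap either. DDIT3, at 5.92 ± 0.269, and CHAC1, at 5.54 ± 1.15, overlapped and were not ordered. PHGDH was at 2.24 ± 0.220 CPM per kb, far below the next enzyme of its pathway, and ASNS was last at 0.342 ± 0.0919. The value of ASNS may not be the level of its mRNA, since it shares most of its exonic bases with another gene.

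ATF4 (chromosome 22, 39520559 to 39522686), the transcription factor at the centre of the response, showed no detectable difference in mRNA. It was at 169.9, 176 and 172 CPM in controls and 157, 157 and 175 CPM in knockouts. The libraries overlap, since knockout replicate 3 lies within the control range. The log2 fold change was -0.08 ± 0.07 (SE), with a 95% interval from -0.23 to 0.06 (edgeR adjusted p = 0.441).

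DDIT3 (chromosome 12, 57516588 to 57520517) encodes CHOP, a transcription factor induced by ATF4 under lasting stress. Its level was low, at 6.28, 6.35 and 5.83 CPM in controls and 6.85, 4.56 and 7.42 CPM in knockouts, from 127 to 220 counts. Knockout libraries lay on both sides of the controls, with a log2 fold change of 0.03 ± 0.19 (95% interval -0.39 to 0.45, edgeR adjusted p = 0.937). Same-strand overlap with another gene covers 10.1% of its principal exonic bases in GENCODE 29, and opposite-strand overlap 27.1%. The strand setting of the counting is not known, so reads of these neighbours cannot be told apart from its own.

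TRIB3 (chromosome 20, 380760 to 397559) is a feedback gene that restrains ATF4 and CHOP and binds the kinase AKT. It was at 36.8, 50.4 and 51.3 CPM in controls and 26.7, 27.8 and 34.6 CPM in knockouts. The groups did not overlap, though control replicate 1 lay close to the highest knockout library. The log2 fold change was -0.64 ± 0.14 (SE; 95% interval -0.96 to -0.31, edgeR adjusted p = 0.0206). The call ended without control replicate 2 (-0.57, adjusted p = 0.0943), control replicate 3 (-0.55, 0.101) or knockout replicate 2 (-0.59, 0.0556).

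Genes around TRIB3 were lower as well. Its 15 nearest tested genes, up to 10 on each side near the end of the chromosome, all had a log2 fold change below 0, with a median of -0.34, and 5 of them fell. Over the first 10 Mb of chromosome 20, 59 of the 64 other tested genes were below 0, 28 fell and 2 rose, and the median was -0.34. TRIB3 was lower than most of them, with 6 genes at a lower value. With the neighbours' median deviation in each library as an offset, TRIB3 was at -0.36 and did not pass (edgeR adjusted p = 0.217). PSAT1 was at -0.44 under the same offset and passed (0.0385).

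**Figure D2:**
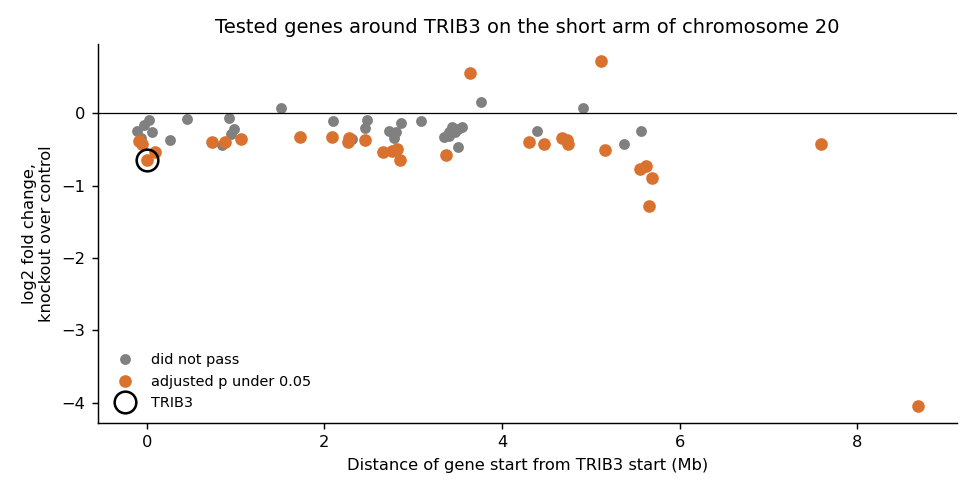
Log2 fold change of each tested gene in the first 10 Mb of chromosome 20 against the distance of its start from that of TRIB3 in Mb, with genes past an adjusted p of 0.05 in orange and TRIB3 circled. Of the 64 other genes, 59 lie below 0, and TRIB3 sits among the lower values close to the chromosome end.

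CHAC1 (chromosome 15, 40953471 to 40956512), an enzyme that degrades glutathione and an early target of ATF4 and CHOP, varied within both groups. It was at 6.58, 9.79 and 9.56 CPM in controls and 4.36, 7.22 and 7.60 CPM in knockouts. The lowest control lay below 2 of the knockouts, so the groups overlap. The log2 fold change was -0.44 ± 0.23 (95% interval -0.95 to 0.08, edgeR adjusted p = 0.250). It was -0.22 without knockout replicate 1 (adjusted p = 0.411). In both groups replicate 1 held the lowest values of CHAC1, TRIB3 and PSPH. With the replicate number as a block in edgeR CHAC1 passed (-0.45, adjusted p = 0.0283). Whether the numbers pair the libraries is undecided.

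ASNS (chromosome 7, 97851677 to 97928441), asparagine synthetase, was counted at only 20, 22 and 28 reads in controls and 27, 19 and 18 in knockouts. This was 0.675, 0.772 and 1.11 CPM against 0.841, 0.683 and 0.642 CPM, with groups that overlap. The log2 fold change was -0.23 ± 0.33 (edgeR adjusted p = 0.710), and its 95% interval, -0.97 to 0.52, covers both directions at this depth. A non-coding gene on the same strand overlaps 79.7% of its principal exonic bases in GENCODE 29. How reads in shared exons were counted was not tested, so its level may not be that of its mRNA.

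Of the serine pathway enzymes, PSAT1 passed the test and PHGDH, PSPH and SHMT2 did not. PHGDH (chromosome 1, 119711934 to 119744215), the first enzyme, was at 6.55, 5.40 and 5.79 CPM in controls and 7.94, 5.82 and 6.35 CPM in knockouts. The groups overlap, and the log2 fold change was 0.18 ± 0.16 (95% interval -0.18 to 0.55, edgeR adjusted p = 0.510). Knockout replicate 1 held the highest value of all 6 libraries, and without it the log2 fold change was 0.04.

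PSAT1 (chromosome 9, 78297125 to 78330093), which transfers an amino group from glutamate, was at 160.2, 157 and 154 CPM in controls and 89.6, 119.9 and 122 CPM in knockouts. The controls were close together and every knockout library lay below them, with knockout replicate 1 the lowest. The log2 fold change was -0.51 ± 0.11 (SE; 95% interval -0.75 to -0.26, edgeR adjusted p = 0.0163). Its 20 nearest tested genes had a median of -0.03, and 1 of them rose. Without knockout replicate 1, edgeR called 3 members, beside 3430 of all 14409 tested genes. Of these members PSAT1 and TRIB3 fell and SLC7A11 rose. The PSAT1 call ended without control replicate 1 (-0.49, adjusted p = 0.0556), replicate 2 (-0.51, 0.0673) or replicate 3 (-0.52, 0.0688). It held without knockout replicate 1, at -0.38 (0.000648).

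PSPH (chromosome 7, 56011064 to 56051444), the phosphatase that completes serine synthesis, was at 47.6, 56.2 and 59.1 CPM in controls and 47.0, 55.9 and 54.1 CPM in knockouts. The groups covered nearly the same range (log2 fold change -0.05 ± 0.10, 95% interval -0.28 to 0.18, edgeR adjusted p = 0.783). SHMT2 (chromosome 12, 57229711 to 57234935) was at 189.7, 197 and 189.9 CPM in controls and 156, 184 and 185 CPM in knockouts. Every knockout lay below every control, but the difference did not pass (-0.13 ± 0.08, 95% interval -0.30 to 0.04, edgeR adjusted p = 0.287). Without knockout replicate 1 its log2 fold change was -0.06.

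Ratios of counts within a library, which need no scaling, were compared for 3 pairs. The ratio of PSAT1 to PHGDH counts was 24.5, 28.98 and 26.6 in controls and 11.3, 20.6 and 19.2 in knockouts. That of PSAT1 to PSPH was 3.37, 2.79 and 2.61 against 1.91, 2.15 and 2.26, and that of PSAT1 to SHMT2 was 0.845, 0.794 and 0.812 against 0.573, 0.652 and 0.659. In each pair all knockouts lay below all controls, by -0.69, -0.47 and -0.38 on the log2 scale. The differences were -0.42, -0.40 and -0.32 without knockout replicate 1. The exact two-sided permutation p was 0.1 for each, the smallest that 3 against 3 allows, and 0.1 after adjustment over the 3 pairs. All 3 ratios share the PSAT1 counts, which already differed between the groups. They are therefore not independent of each other and restate the fall of PSAT1.

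SLC7A11 (chromosome 4, 138164097 to 138242349) encodes xCT, the cystine importer that feeds glutathione synthesis and is a target of both ATF4 and NRF2. It was at 113, 116 and 120.02 CPM in controls and 116, 188 and 179 CPM in knockouts. Knockout replicates 2 and 3 lay far above the controls, while knockout replicate 1 lay within their range. The log2 fold change was 0.47 ± 0.15 (95% interval 0.13 to 0.80, unadjusted p = 0.0119 in edgeR), and it did not pass after adjustment (0.0747). It passed without knockout replicate 1 (0.66, adjusted p = 1.63e-05), in DESeq2 (0.47, 0.0162), with no filter on low counts (0.48, 0.00112) and with the replicate block (0.44, 0.00898). An antisense gene overlaps 8.97% of its principal exonic bases in GENCODE 29.

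**Figure D3:**
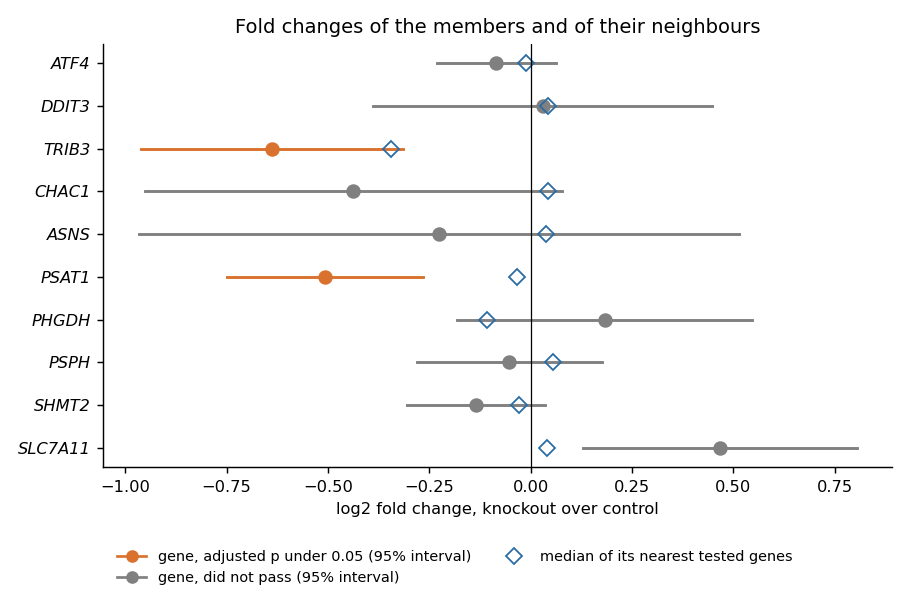
Log2 fold change of each gene, knockout over control, with its 95% interval, in orange where the adjusted p was under 0.05, and the median of its nearest tested genes as an open diamond. The interval of SLC7A11 is unadjusted and lies above 0, while only PSAT1 and TRIB3 passed after adjustment, and the neighbour median is -0.34 for TRIB3 and from -0.11 to 0.05 for the others.

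**Figure D4:**
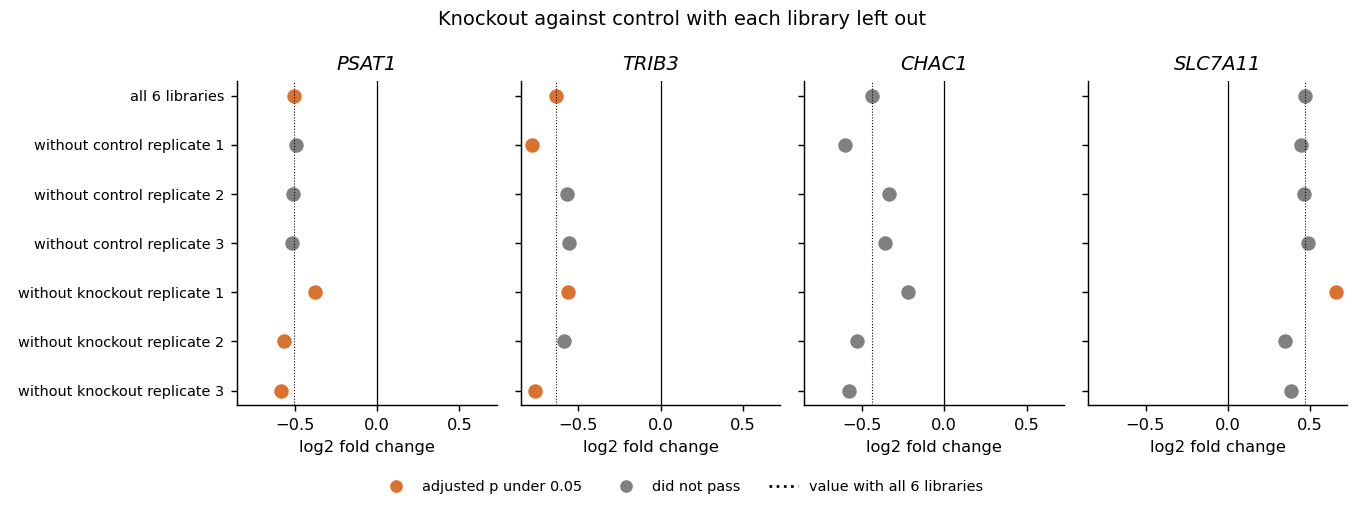
Log2 fold change of 4 of the genes with all 6 libraries and with each left out in turn, in orange where the adjusted p was under 0.05. All values of PSAT1, TRIB3 and CHAC1 stay below 0 and all of SLC7A11 above it, while the calls depend on single libraries.

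The genes whose pattern over the 6 libraries was nearest to that of TRIB3, by Euclidean distance of centred log2 CPM, were CPA4 (distance 0.183), SLC35F3 (0.203) and PTK7 (0.257). For PSAT1 they were SDHAF3 (0.106), GCAT (0.150) and NUDT16L1 (0.153). GCAT, which forms glycine in the breakdown of threonine, was at 13.8, 15.2 and 14.9 CPM in controls and 8.35, 10.6 and 11.1 CPM in knockouts. Among 14199 genes and 6 libraries, such likeness is a description only.

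The other genes of the pathway were followed in 9 lists with 137 genes, of which 130 were tested. Of these 7 rose, 17 fell and 106 did not pass, beside background shares of 5.88% and 6.22%, and their median log2 fold change was -0.05. The lists were chosen with earlier results of these data known, so setting them beside these shares is a description only. The 24 calls became 10 without control replicate 2, 9 without control replicate 3, 10 without knockout replicate 3 and 47 without knockout replicate 1. Over all tested genes the 1718 calls became 649, 550, 524 and 3430 in the same settings. Of the 47, 22 rose and 25 fell, so the surplus of falls was smaller there. Of all 14409 genes tested without knockout replicate 1, 1629 rose and 1801 fell. With the replicate block there were 42 calls, of which 14 rose and 28 fell, beside 1506 and 1593 of all genes. With the neighbour offset there were 14, of which 6 rose and 8 fell, beside 496 and 439. The counts per list in these settings, given below, stand against the same background.

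**Figure D5:**
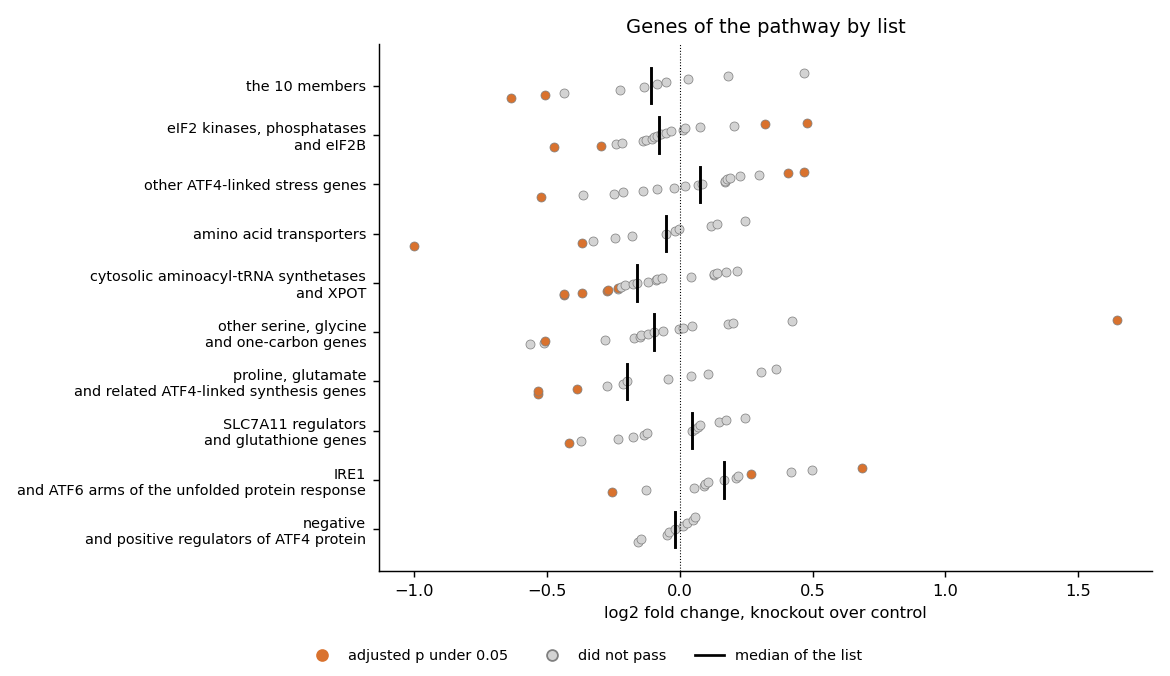
Log2 fold change of every tested gene in each list, one point per gene, in orange where the adjusted p was under 0.05, with a black bar at the median of the list. The lists of tRNA synthetases and of proline, glutamate and related genes have the lowest medians, at -0.16 and -0.20. With the neighbour offset these are -0.13 and -0.03, and the amino acid transporters are at -0.13.

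In the list of eIF2, its kinases and phosphatases, eIF2B and related genes, 2 of 18 genes rose and 2 fell. None of the 4 eIF2 kinases was among them. No kinase had an unadjusted p under 0.05 in this main test either. Without knockout replicate 1 the list had 2 rises and 3 falls. The kinase EIF2AK2, named after its values were seen, was among those falls. PPP1R15A, or GADD34, the stress-induced subunit of the eIF2 phosphatase, was at 124, 135 and 136 CPM in controls and 150, 191 and 209 CPM in knockouts. It rose by 0.48 ± 0.11 on the log2 scale (edgeR adjusted p = 0.0223, and 0.0482 with the neighbour offset). Its constitutive counterpart PPP1R15B fell by 0.30 ± 0.08 (0.0313), beside neighbours with a median of -0.19, and did not pass with the offset (-0.12, 0.497). EIF2S3, the gamma subunit of eIF2, went from 317, 306 and 302 CPM to 251, 214 and 201 CPM (-0.47 ± 0.08, 0.00728). DELE1, which relays mitochondrial stress to an eIF2 kinase, rose by 0.32 ± 0.09 (0.0402; 0.22 and 0.174 with the offset). Among regulators of ATF4 protein, 0 of 9 passed in edgeR, DESeq2 or limma-voom, and 1, MYC (-0.16, adjusted p = 0.110), had an unadjusted p under 0.05. BTRC, a ubiquitin ligase subunit that marks ATF4 for degradation, was at -0.15 (0.253). The calls of PPP1R15A and PPP1R15B each ended without any 1 library other than knockout replicate 1, and that of DELE1 without control replicate 2 or 3 or knockout replicate 3 (adjusted p up to 0.176). EIF2S3 passed without each library in turn.

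Of 18 tested stress genes linked to ATF4, 2 rose and 1 fell. ATF5, a related transcription factor, was at 46.4, 47.0 and 42.1 CPM in controls and 58.5, 62.9 and 58.3 CPM in knockouts (0.41 ± 0.08, edgeR adjusted p = 0.00973). Genes on the opposite strand share 23.7% of its principal exonic bases. VLDLR, a lipoprotein receptor, rose by 0.47 ± 0.13 (0.0400). VEGFA, the angiogenic factor, fell by 0.52 ± 0.11 (0.0147). The calls of VLDLR and VEGFA ended without control replicate 2 (adjusted p = 0.143 and 0.0725), control replicate 3 (0.159 and 0.0790) or knockout replicate 3 (0.123 and 0.0613), and that of ATF5 without control replicate 3 (0.0667). With the replicate block 4 of the 18 rose and 3 fell, and without knockout replicate 1 the list had 3 rises and 2 falls.

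Of 21 genes for cytosolic tRNA synthetases and the tRNA exporter XPOT, 6 fell and 0 rose. At an unadjusted p under 0.05, 10 stood lower and 0 higher, and DESeq2 called 7 lower and 0 higher. Over all genes, 3939 of 14199 had an unadjusted p under 0.05 in edgeR, in either direction. DESeq2 called 1069 of 15325 genes lower and 1019 higher. TARS1, for threonine, went from 449, 457 and 463 CPM to 350, 329 and 333 CPM (-0.44 ± 0.06, edgeR adjusted p = 0.00155). CARS1 (-0.37), EPRS1 (-0.27) and FARSA (-0.44) also fell. The genes just named lie among neighbours that were lower as well: the neighbour median was -0.21 for TARS1, -0.27 for CARS1, -0.37 for EPRS1 and -0.34 for FARSA. FARSA (chromosome 19, 12922479 to 12933711) lies close to RNASEH2A itself (12806584 to 12813640). With the neighbour offset 2 of the 21 fell, TARS1 at -0.24 (0.0387) among them, while CARS1, EPRS1 and FARSA did not pass (0.403, 0.797 and 0.612). The median of the whole list was -0.16 in the main test and -0.13 with the offset. Without control replicate 1 the count was 4, and without control replicate 2, control replicate 3 or knockout replicate 3 it was 1 each. Without knockout replicate 1 it was 7, with 3 that rose. TARS1 passed without each library in turn.

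Among 11 tested amino acid transporters 2 fell and 0 rose. SLC6A9, the glycine transporter GlyT1, was at 32.03, 30.5 and 32.3 CPM in controls and 17.1, 14.1 and 16.2 CPM in knockouts. The groups were far apart, it fell by 50.1% (edgeR adjusted p = 0.000519), and it passed with the neighbour offset (-0.97, 0.00110). SLC38A1, a carrier of neutral amino acids, fell by 0.37 ± 0.06 (0.00392; -0.23 and 0.0898 with the offset). Without knockout replicate 1 the list had 2 rises and 3 falls, and with the replicate block 0 rises and 4 falls.

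In the list of other serine, glycine and one-carbon genes 1 of 17 rose and 1 fell. ALDH1L1, a cytosolic folate enzyme, rose from 1.69, 2.91 and 2.50 CPM to 6.67, 7.94 and 7.63 CPM (1.65 ± 0.21, edgeR adjusted p = 0.00154). MTHFD1L, which makes formate in mitochondria, fell from 82.3, 86.6 and 81.4 CPM to 55.5, 63.0 and 57.6 CPM (-0.51 ± 0.07, 0.00302). Its neighbours had a median of -0.24, and with the offset it was at -0.25 (0.0763).

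Of 11 genes for proline, glutamate and related synthesis 3 fell and 0 rose. With the neighbour offset the count of falls was again 3, while the median of the list was -0.03, beside -0.20 in the main test. ALDH18A1, which commits glutamate to proline, went from 161, 181 and 169.5 CPM to 124, 117 and 112 CPM (-0.53 ± 0.07, edgeR adjusted p = 0.00184). BCAT1, a transaminase of branched-chain amino acids, went from 159, 149 and 153 CPM to 123, 99.0 and 96.5 CPM (-0.53 ± 0.09, 0.00747). GPT2, a mitochondrial alanine transaminase, fell by 0.39 ± 0.08 (0.0142), while its neighbours had a median of 0.16. Without knockout replicate 1 the list had 5 falls and 3 rises. It had 5 falls and 2 rises with the replicate block, and 3 falls and 2 rises with no filter on low counts. The call of GPT2 ended without control replicate 2 (0.0780) or 3 (0.0602) and that of BCAT1 without knockout replicate 3 (0.0506).

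For the partners and regulators of SLC7A11 in glutathione metabolism, 1 of 13 fell and 0 rose. GCLM, a subunit of glutamate-cysteine ligase and a target of NRF2, went from 160.5, 160.2 and 164 CPM to 113, 144 and 106 CPM (-0.42 ± 0.10, edgeR adjusted p = 0.0308). Its neighbours had a median of -0.32, and it did not pass with the offset (-0.09, 0.739). This list had 3 rises and 3 falls without knockout replicate 1, and with the replicate block 0 rises and 3 falls. In the list for the IRE1 and ATF6 arms of the unfolded protein response 2 of 13 rose and 1 fell. Genes in this list can also be targets of ATF4. HERPUD1, of endoplasmic reticulum degradation, was at 44.7, 47.1 and 48.7 CPM in controls and 73.3, 73.3 and 79.2 CPM in knockouts (0.68 ± 0.07, 0.000726). SEL1L rose by 0.27 ± 0.06 (0.0211) and the sensor ATF6 fell by 0.26 ± 0.07 (0.0352), and neither passed with the offset (0.113 and 0.402). GCLM and SEL1L did not pass without any 1 control or without knockout replicate 3, and ATF6 without control replicate 2 or 3 or knockout replicate 2 or 3. HERPUD1 passed without each library in turn. Both without knockout replicate 1 and with the replicate block, the list of unfolded protein response genes had 5 rises and 1 fall.

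Of the 111 pathway genes with a promoter window 22 held TGATGNAA, as did 7 of the 15 with a window that fell and 1 of the 7 that rose. The others of the 22 were not called in either direction. Groups of 15 and 7 genes are too small to be read against each other. Besides MTHFD1L, BCAT1 and PPP1R15B, whose matches are printed above, the fallers with a match were TARS1, CARS1, SLC38A1 and IARS1, the last named after its values were seen. With the neighbour offset MTHFD1L, PPP1R15B, CARS1 and SLC38A1 did not pass, while TARS1, BCAT1 and IARS1 did. The riser was HERPUD1, with the match from -176 to -169 (chr16:56931955-56931984, plus strand): gacgcggcgggTTGCATCAgcccgtgccca. Many genes of the lists are known ATF4 targets, beside others that act upstream of ATF4, on its protein or in other arms. A share above the 4.46% of all genes with a window is thus no independent evidence of their direction or control.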

How the data were processed

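Messenger RNA was enriched by its poly-A tails from 6 cultures of the cell line, and strand-specific libraries were made, per the labels' protocols. Per the submitters' processing notes, FastQC and STAR version 2 were used, with the build GRCh38. The tool that counted reads, whether it used strand, and its gene models are not stated in these sources. The deposited raw read count per gene symbol was the source of the main values. The authors' deposited log2 CPM table was used for 1 alternative only.

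Differences were tested with edgeR 4.0.16 (R 4.3.3) on all genes that passed filterByExpr, with TMM scaling, a quasi-likelihood F test and Benjamini-Hochberg adjustment over 14199 genes. The script was first tested on simulated counts. Levels are CPM on the TMM scale. Other settings were DESeq2 1.42.0, limma 3.58.1 (voom, and on the deposited log2 CPM), other scalings and filters, the replicate number as a block, leaving out each library, and an offset for neighbouring genes. For that offset, the median deviation of the 10 nearest tested genes on each side was taken per library. A position in RefSeq (GRCh38.p14) was found for 14086 of the 14199 tested genes. Promoter windows and gene spans come from RefSeq, and exon overlaps from GENCODE 29.

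The members and lists were chosen with earlier results of these data known. The text names the 10 members, RNASEH2A, up to 4 passing genes per list (or 2 where none passed) and the 3 genes nearest in pattern to each member that passed. Of the counts from 1 to 20, 69.7% to 72.9% were even in each library, so reads may have been counted in pairs. The library totals give a floor of 3 counts, or 0.0949 to 0.118 CPM, which covers counting error only and would be too low if pairs were counted. Within groups, pairs of libraries differed by a chi-square of 2.45 to 34.2 per degree of freedom. Counting in pairs alone would raise it to about 2, so control replicates 2 and 3 (2.45) may differ by little more than sampling. They were kept as separate samples.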

Additional observations from a re-analysis of the deposited data

How the results depend on the processing

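With the neighbour offset 935 genes were called of 14199, and with the replicate block 3099, where the main test called 1718. Without single libraries the count ran from 524 to 3430. Of the 10 members 1 was called with the offset, 4 with the block and 0 to 3 without single libraries. Without control replicate 2 or 3, where edgeR called 0 members, 3 in each case had an unadjusted p under 0.05. Over all genes, 2957 of 14481 and 2908 of 14517 were below it in these settings, in that order. Calls among the other pathway genes numbered 14 with the offset, 42 with the block and 9 to 47 without single libraries. EPRS1 was at 0.035 with the offset. The other called members and the called list genes chosen by the naming rule kept their direction in the settings run, while IARS1, KRT18 and the genes nearest in pattern to TRIB3 and PSAT1 were not followed there. Of the members that did not pass, DDIT3 was at -0.014 with the offset and from -0.10 to 0.22 without single libraries, ASNS from -0.37 to 0.0020 and PSPH from -0.14 to 0.021. With the stricter motif TGATGCAA 1 member had a match. The replicate numbers are shared only as numbers. Deviations from the group means of libraries with the same number correlated at r = 0.316 for number 1, 0.139 for number 2 and 0.0855 for number 3. Pairs of a replicate 1 with another number were all negative, from -0.243 to -0.154. Control replicate 3 correlated best with knockout replicate 2 (0.141), and control replicate 2 with knockout replicate 3 was at 0.0915. These values leave undecided whether the numbers pair the libraries, and the main test took them as unpaired. ASNS gave no value at a mean of 1 CPM. The cause of these differences was not tested.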
